A study of Rattus norvegicus with 12 samples.

Results

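The 35 genes described here are known from neurons and glia, and were measured in RNA of rat skull bone. They were taken by name: all probes whose gene name in the 12 scanner files is one of these symbols, which gave 64 probes among 45598 rat probes. The genes cover myelin (7), astrocytes and the matrix around them (8), synapses and neuronal signalling (10), the neuronal cytoskeleton, axons and growth (7), and 3 further neuronal genes. They were selected on their measured levels, which were uneven among the control arrays and often below control in the treated groups, so their differences from control are a description of that choice and carry no test here. The name "neuronal and glial" refers to where these genes are best known. Several are used elsewhere too: Aldoc and Eno2 are glycolytic enzymes, Slc7a10 is also a transporter of fat cells, and Mal, Cnp and Cldn11 occur outside the nervous system.

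Calvarial bone of rats (Rattus norvegicus) aged 10 weeks was sampled 24 h after surgery, and its total RNA was measured in 3 groups of 4 samples. In the bur group a rectangular defect of 8 by 3 mm was drilled into the calvaria, in the laser group a defect of the same size was cut with an Er:YAG laser, and in the control group the periosteum was removed and the bone was not ablated, although the series' text also calls the controls non-treated. No strain, sex or animal number is given in the labels, and the labels do not say how many animals stand behind a group, so a p-value here measures the spread between samples, which may be technical. Each sample was labelled with Cy3 from 200 ng of RNA and hybridised to 1 array. Control and bur arrays lay in different columns of slide 1 and laser arrays on slide 2, which was scanned separately. Slide and laser treatment cannot be told apart, nor can slide column and bur treatment.

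Myelin is the layered membrane that oligodendrocytes wrap around axons in the brain and spinal cord. Its membranes are held together by proteins such as Mbp and Mobp. Astrocytes take up glutamate released at synapses, through Slc1a2 and Slc1a3, and conduct water through Aqp4. Neurons release transmitter when Snap25 and its partners draw vesicles, marked by Syp and Syt1, to the membrane. Mature bone is innervated by fine fibres, but the cell bodies that hold most neuronal messenger RNA lie outside it, and the calvaria lies directly over the meninges and the brain.

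Of 9 bone markers, 7, among them the collagen chain Col1a1 and osteocalcin (Bglap), were well above background on all 12 arrays, Sp7 on 10 and Phex on 8. In control, 2 arrays read Sp7 above that mark and 1 read Phex. Sost, the osteocyte gene named in the series' title, had a mean log2 intensity of 5.59 ± 0.82 (SD, n = 4) in control, 5.79 ± 0.77 in bur and 5.16 ± 0.63 in laser, and none of its differences was called. The median processed signal over spots ranged from 16.5 to 43.2 over the control arrays, 18.6 to 28.3 over the bur arrays and 55.6 to 81.9 over the laser arrays. The laser arrays had 67.5% to 72.0% of spots well above background, against 57.0% to 64.4% on the other 8 arrays. Levels below are log2 intensities after quantile normalization, and a reading of about 3 or less is near the background limit, which lay between 1.59 and 3.09 over the arrays. Readings under that limit have no order among themselves.

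The genes were unevenly present over the arrays. Of the 35, 33 were well above background on control 1 and 34 on control 4, but 20 on control 2 and 23 on control 3. The bur arrays read 16, 21, 18 and 18 of them, and the laser arrays 20, 20, 28 and 25. Among the control arrays the share of all named genes that was well above background did not follow this order. It was 54.0% on control 1, 52.8% on control 2, 58.7% on control 3 and 59.4% on control 4. The share was 52.5% to 55.7% on the bur arrays. On laser 1 to 4 it was 64.0%, 65.1%, 68.1% and 66.1%, so the higher counts on laser arrays went with a higher share of all genes. After the filter on dim probes, which asks for at least 4 of 12 arrays, 38 probes and 29 genes were kept. Mog, Aqp4, Camk2a, Stmn2, Nefl and Nefm were not kept, and Aqp4, Stmn2 and 1 of the 2 Nefm probes were well above background on control 1 and control 4 alone. A count over the 29 is therefore no count over all 35.

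**Figure D1:**
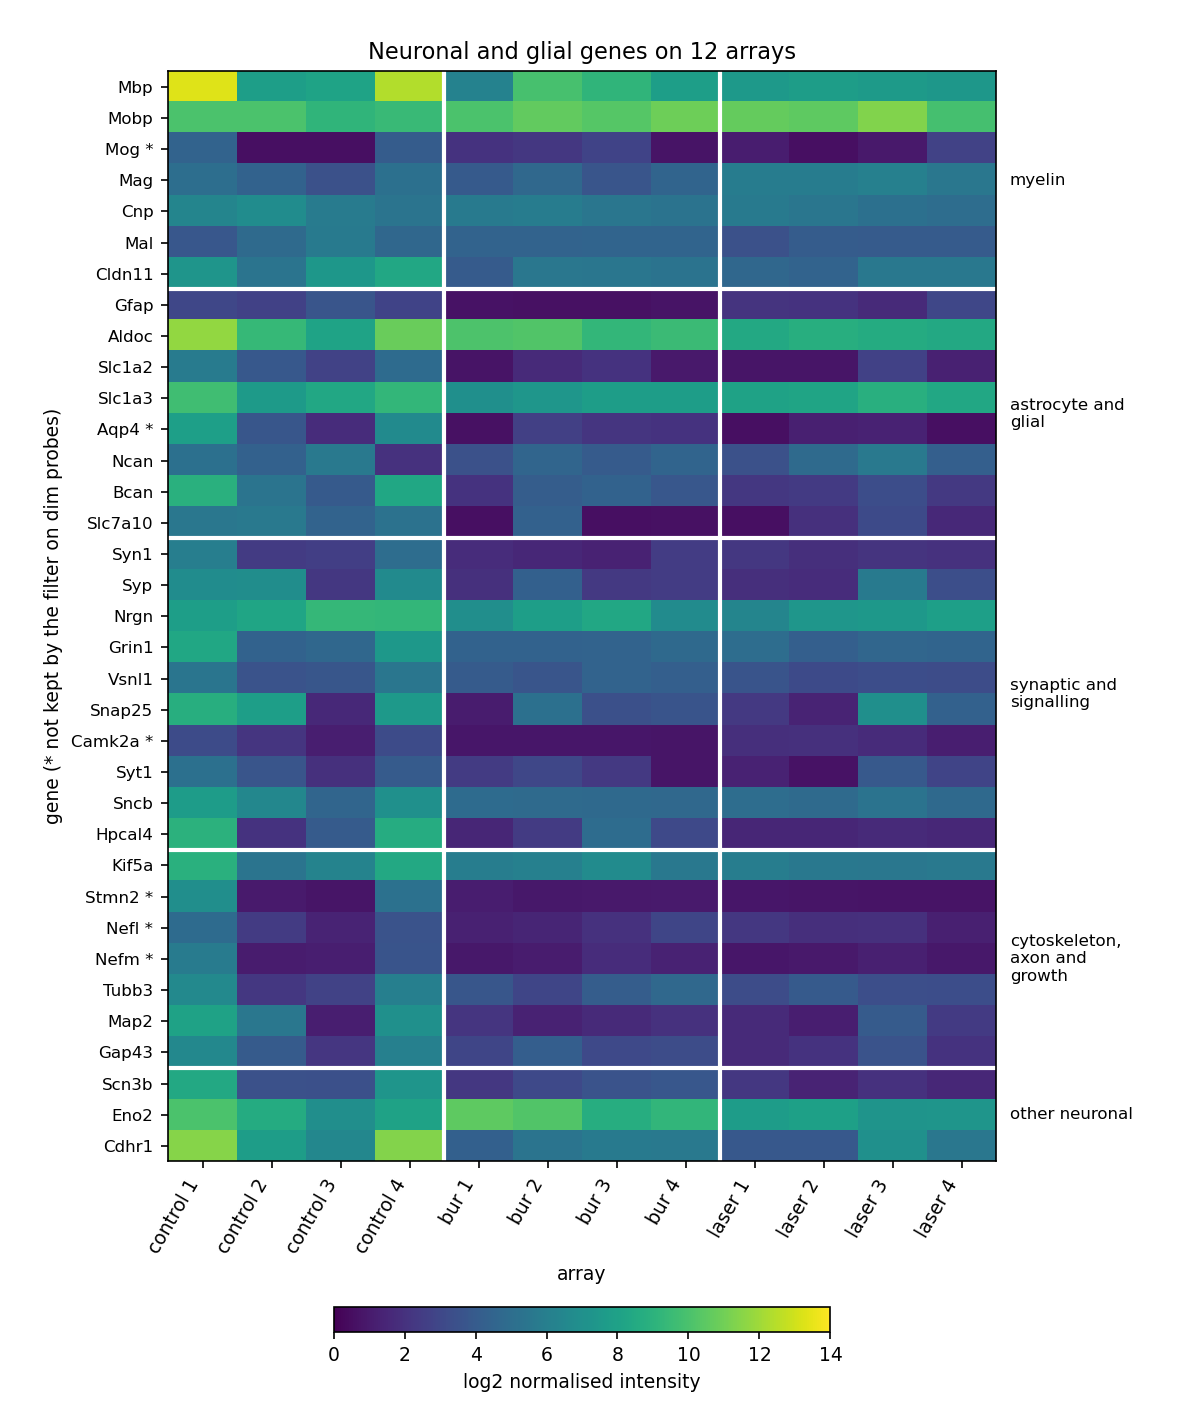
Log2 normalised intensity (colour, 0 to 14) of the 35 genes (rows, 1 probe each) on the 12 arrays (columns), with white lines between the functional groups and between control, bur and laser. Columns control 1 and control 4 are brighter than the rest for most rows, as for Mbp (13.29 and 12.37) and Cdhr1 (11.48 and 11.38), and an asterisk marks the 6 genes that the filter did not keep.

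Control 1 held the highest reading of 17 of the 29 genes, where it held that of 7.28% of all named genes. Control 1 and control 4 were the highest pair of arrays for 17 of the 29 (58.6%), and for 3.25% of all named genes. Within the control group the range between the lowest and highest array had a median of 3.51 log2 units over the 29 genes and 0.78 over all genes. It exceeded 2 log2 units for 21 of the 29, against 10.98% of all genes. The median range was 1.27 in the bur group and 0.89 in the laser group, against 0.64 and 0.47 over all genes. Since the genes were chosen for being uneven among the control arrays, the control ranges describe the choice. In bulk RNA, fewer cells of a type and less RNA per cell cannot be told apart.

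Among the myelin genes, Mbp, the myelin basic protein that binds the inner faces of the myelin membrane, had a wide spread in control. It read 13.29, 7.87, 8.14 and 12.37 on control 1 to 4, 6.22, 9.92, 9.16 and 7.86 on bur 1 to 4, and 7.52, 7.81, 7.63 and 7.41 on laser 1 to 4. Control 1 and control 4 stood more than 2 log2 units above every other array, while control 2 and control 3 lay among the bur readings. The laser readings were below all control readings. Cldn11, the claudin of myelin tight junctions, read 7.27, 5.37, 7.40 and 8.41 in control, 4.04, 5.53, 5.48 and 5.34 in bur, and 4.66, 4.48, 5.59 and 5.62 in laser. Here control 2 was the control array that overlapped the treated groups, and control 3 was high. Mog, a surface protein of myelin used as a marker of mature oligodendrocytes, depended on the probe. By A_43_P12283 it was well above background on 2 control arrays, no bur array and 1 laser array. That probe read 4.43 and 4.07 on control 1 and control 4. By A_44_P397725 Mog was well above background on 3 laser arrays and no other, and read 1.96 to 2.41 in laser.

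Cnp, Mal and Mag did not share the order of Mbp. Cnp, a myelin enzyme, read 6.38, 6.78, 5.80 and 5.40 in control, 5.34 to 5.86 in bur and at most 5.70 in laser, with control 2 the highest array. Mal, a membrane-sorting proteolipid, was highest on control 3 (5.75) and lowest on laser 1 (3.499). Mag, an adhesion protein on the inner wrap of myelin, read 5.05, 4.38, 3.45 and 5.19 in control, 3.98, 4.72, 3.69 and 4.52 in bur, and 5.88, 5.86, 6.11 and 5.53 in laser. All laser readings of Mag lay above all other arrays. That held for 1 of its probes, and the other Mag probe was not well above background on any array.

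Mobp, a protein of compact myelin, depended on the probe. Its 6 probes fall into distinct groups of readings, and 3 of their sequences are shown because the readings differ with them. The first ends in a CA repeat of 26 bases (capitals), the second has no marked motif, and the third holds AATAAA (capitals), the sequence of the canonical polyadenylation signal.
Mobp A_44_P1156801, bases 31 to 60 of 60: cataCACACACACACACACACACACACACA
Mobp A_64_P074471, whole probe: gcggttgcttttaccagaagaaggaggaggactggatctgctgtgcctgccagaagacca
Mobp A_44_P1082019, bases 31 to 60 of 60: acgtcAATAAAttcttgccgactgaaaaaa
The scanner files place them on build rn4 at chr8:125142609-125142668, chr8:125135770-125135829 and chr8:125144043-125144102. Sequences are as the files list them, 5′ to 3′. No rn4 gene annotation was used here, so exon and UTR are not given. Only 20 of the 45598 rat probes have a CA run of 20 or more bases, and this probe is the only one of the 64 that does.

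The CA-repeat probe of Mobp read 9.16 to 10.05 in control, 10.03 to 10.92 in bur and 9.89 to 11.34 in laser, and control 1 and control 4 did not stand out. The probe A_64_P074471 read 7.99, 5.48, 5.68 and 7.66 in control, 4.58, 6.03, 5.52 and 4.94 in bur, and 5.40 to 5.47 in laser. Probe A_44_P1082019 read 5.33, 0.93, 1.79 and 5.85 in control and 2.55 or less on all 8 treated arrays. The rule of taking the probe with the highest mean chose the CA-repeat probe, so any value called Mobp below is that of the repeat probe. What the repeat probe bound was not tested. The probes of Mbp also differed: A_64_P017160 read 6.28, 6.25, 6.94 and 6.10 in control and 5.51 to 6.77 on the treated arrays, without the high readings of control 1 and control 4.

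**Figure D2:**
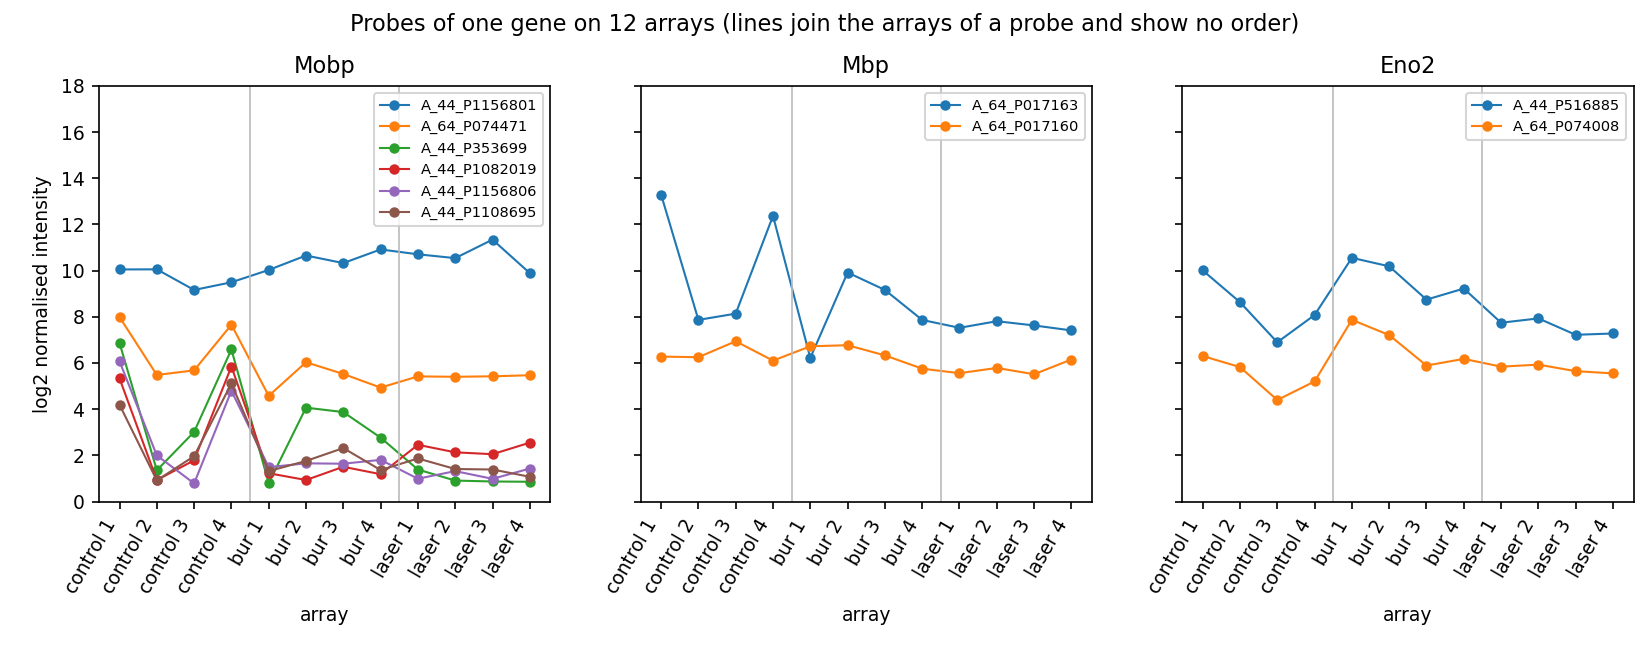
Log2 normalised intensity (y) of each probe of Mobp, Mbp and Eno2 on the 12 arrays (x), 1 colour per probe, with grey lines between groups. The CA-repeat probe A_44_P1156801 of Mobp stays between 9.16 and 11.34, and the other 5 Mobp probes are highest on control 1 or control 4. The 2 probes of Eno2 are both highest on bur 1.

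AATAAA on the listed strand was found in 13 of the 64 probes (20.3%) and in 9.04% of all rat probes. It was in 11 of the 38 kept probes and 2 of the 26 that were not kept. Only the listed strand was searched, since the labelled strand that a probe binds is its complement. A match describes these letters and shows no working signal. Of the 64 probes, 52 had an accession in the RefSeq gene table of the GRCr8 assembly, and each carried the symbol that the scanner files give.

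Among the astrocyte genes, Bcan, or brevican, a proteoglycan of the brain's extracellular matrix, read 8.89, 5.38, 3.94 and 8.33 in control, 2.08, 4.11, 4.42 and 3.78 in bur, and 2.27, 2.40, 3.32 and 2.32 in laser. Control 1 and control 4 were highest, and control 3 lay within the bur range. Ncan, or neurocan, a related proteoglycan, went another way, with 5.16, 4.32, 5.68 and 1.99 in control, so that control 4 was its lowest array. Slc1a2, the main glutamate transporter of forebrain astrocytes, read 5.83, 3.84, 2.78 and 4.92 in control, 0.76 to 2.02 in bur and 0.78 to 2.69 in laser, and no bur array was well above background. Slc1a3, the other astrocytic glutamate transporter, read 9.71, 7.65, 8.40 and 9.25 in control, 6.99 to 7.81 in bur and 8.09 to 8.86 in laser. It was present on all arrays, with laser above bur.

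Aqp4, the water channel of astrocyte end-feet, read 7.92, 3.74, 1.76 and 6.69 in control and 2.65 or less on the 8 treated arrays, none of which was well above background. Gfap, the filament protein of astrocytes, was near background throughout: 2.98, 2.69, 3.67 and 2.81 in control, 0.65 to 0.71 in bur and 2.10, 2.06, 1.64 and 2.96 in laser, with 2, 0 and 2 arrays well above background. Aldoc, an aldolase of astrocytes and other glycolytic cells, read 11.72, 9.41, 8.12 and 10.79 in control, 9.29 to 10.20 in bur and 8.47 to 8.75 in laser. Slc7a10, a transporter of small neutral amino acids in astrocytes and fat cells, read 5.53, 5.66, 4.48 and 5.27 in control. Its bur readings were 0.59, 4.34, 0.59 and 0.64 and its laser readings 0.58, 1.95, 3.12 and 1.63. All 4 control arrays of Slc7a10 were close together and above every treated array, unlike the other astrocyte genes.

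Fat-cell genes also varied over these arrays. Of 8 adipocyte genes on the array, 5 were kept, and their summed level, the log2 of the sum of linear intensities, was 12.66 to 14.04 in control, 12.36 to 13.38 in bur and 12.83 to 13.90 in laser. None of the 8 was below background on every array. The adipokine Adipoq read 6.56, 8.92, 8.71 and 9.10 in control, 3.89, 7.69, 6.87 and 7.20 in bur, and 3.65, 6.16, 9.70 and 5.98 in laser. Their part in the Slc7a10 difference was not tested.

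The synaptic genes followed different arrays. Hpcal4, a neuronal calcium sensor, read 9.02, 2.05, 3.99 and 8.66 in control, 1.49, 2.45, 4.94 and 3.12 in bur, and 1.48 to 1.69 in laser, where no array was well above background. Grin1, the obligatory subunit of NMDA receptors, read 8.35, 4.39, 4.67 and 7.45 in control, 4.38 to 4.77 in bur and 4.23 to 4.99 in laser. Syn1, or synapsin, a phosphoprotein of synaptic vesicles, read 5.99, 2.44, 2.62 and 5.01 in control and 2.47 or less in the treated groups. For these 3 genes control 1 and control 4 were high, and control 2 and control 3 lay within the bur range or just above it. Vsnl1, a visinin-like calcium sensor, had the same highest pair (5.44 and 5.52), with 3.58 and 3.73 on control 2 and control 3.

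Snap25, the membrane SNARE of synaptic vesicle release, was high on control 2 as well. It read 8.78, 7.87, 1.60 and 7.59 in control, 1.07, 5.16, 3.40 and 3.66 in bur, and 2.30, 1.41, 6.99 and 4.34 in laser. Syp, or synaptophysin, a protein of the vesicle membrane, read 6.78, 6.87, 2.29 and 6.70 in control, 1.96, 4.29, 2.34 and 2.50 in bur, and 1.87, 1.80, 5.78 and 3.38 in laser. In both, control 3 was at background, and bur 2 and laser 3 were the highest treated arrays. Syt1, the calcium sensor of vesicle release, read 5.18, 3.71, 1.93 and 4.001 in control, with laser 3 (3.90) its highest treated array. The Syp probe with these readings and the other Syp probe, which was well above background on 1 array, are shown because the call of detection depends on which of them is read.
Syp A_43_P11509, bases 31 to 60 of 60: gattgtgaacaaaatgtcccttgcggactc
Syp A_44_P1081999, whole probe: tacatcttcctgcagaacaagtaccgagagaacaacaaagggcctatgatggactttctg
They lie at chrX:26890644-26890703 and, over an interval longer than the probe, at chrX:26898931-26899671 of rn4.

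Sncb, or beta-synuclein of nerve terminals, read 7.74, 6.49, 4.59 and 7.01 in control, 4.75 to 4.88 in bur and 4.81 to 5.31 in laser, and control 3 was below all treated arrays. Nrgn, or neurogranin, a calmodulin-binding protein of dendrites, was highest on control 3 (9.33) and control 4 (9.29), with 7.86 and 8.22 on control 1 and control 2, 6.76 to 8.40 in bur and 6.37 to 7.88 in laser. Camk2a, a kinase abundant at excitatory synapses, was well above background on 1 control array and no other. The synaptic group thus held genes with at least 3 orders of the control arrays.

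Of the cytoskeletal genes, Map2, a microtubule protein of dendrites, read 8.05, 5.53, 1.16 and 7.01 in control, 1.33 to 2.19 in bur and 1.68, 1.18, 4.01 and 2.38 in laser. Its order resembled that of Syt1, with control 3 at background and laser 3 the highest treated array. Kif5a, a neuronal kinesin motor, read 8.89, 5.38, 6.28 and 8.47 in control, 5.58 to 6.74 in bur and 5.57 to 5.95 in laser. Tubb3, a tubulin widely used as a neuronal marker, read 6.57, 2.28, 2.79 and 6.02 in control, 2.91 to 4.70 in bur and 3.27 to 3.95 in laser, so control 2 and control 3 lay below all treated arrays. Gap43, a growth-cone protein, read 6.51, 4.01, 2.21 and 6.11 in control.

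The remaining cytoskeletal genes were detected on few arrays. Stmn2, a stathmin of growing axons, read 6.91 and 5.20 on control 1 and control 4 and at most 1.11 on the other 10 arrays. The neurofilament gene Nefm, by its probe A_42_P752336, read 5.82 and 3.66 on those arrays and at most 1.77 elsewhere. Its other probe read 4.06 and 2.66 there, 3.44 on laser 4, where it was also well above background, and at most 1.27 elsewhere. Nefl, the light neurofilament, read 4.87 and 3.56 there and at most 2.94 elsewhere.

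Of the 3 further genes, Cdhr1, a photoreceptor cadherin also expressed in the olfactory bulb, read 11.48, 7.80, 6.48 and 11.38 in control, 4.28, 5.38, 5.70 and 5.67 in bur, and 3.88, 3.84, 7.05 and 5.53 in laser. All control arrays lay above all bur arrays, while laser 3 lay between control 3 and control 2. Scn3b, an accessory subunit of voltage-gated sodium channels, read 8.46, 3.47, 3.43 and 7.31 in control, 2.25 to 3.79 in bur and 1.39 to 2.28 in laser. Eno2, the neuronal form of enolase, read 10.01, 8.63, 6.90 and 8.08 in control, 10.55, 10.19, 8.74 and 9.22 in bur, and 7.74, 7.93, 7.22 and 7.28 in laser. Its readings in bur were all above those in laser, and its other probe gave 5.89 to 7.87 in bur and 5.55 to 5.93 in laser.

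**Figure D3:**
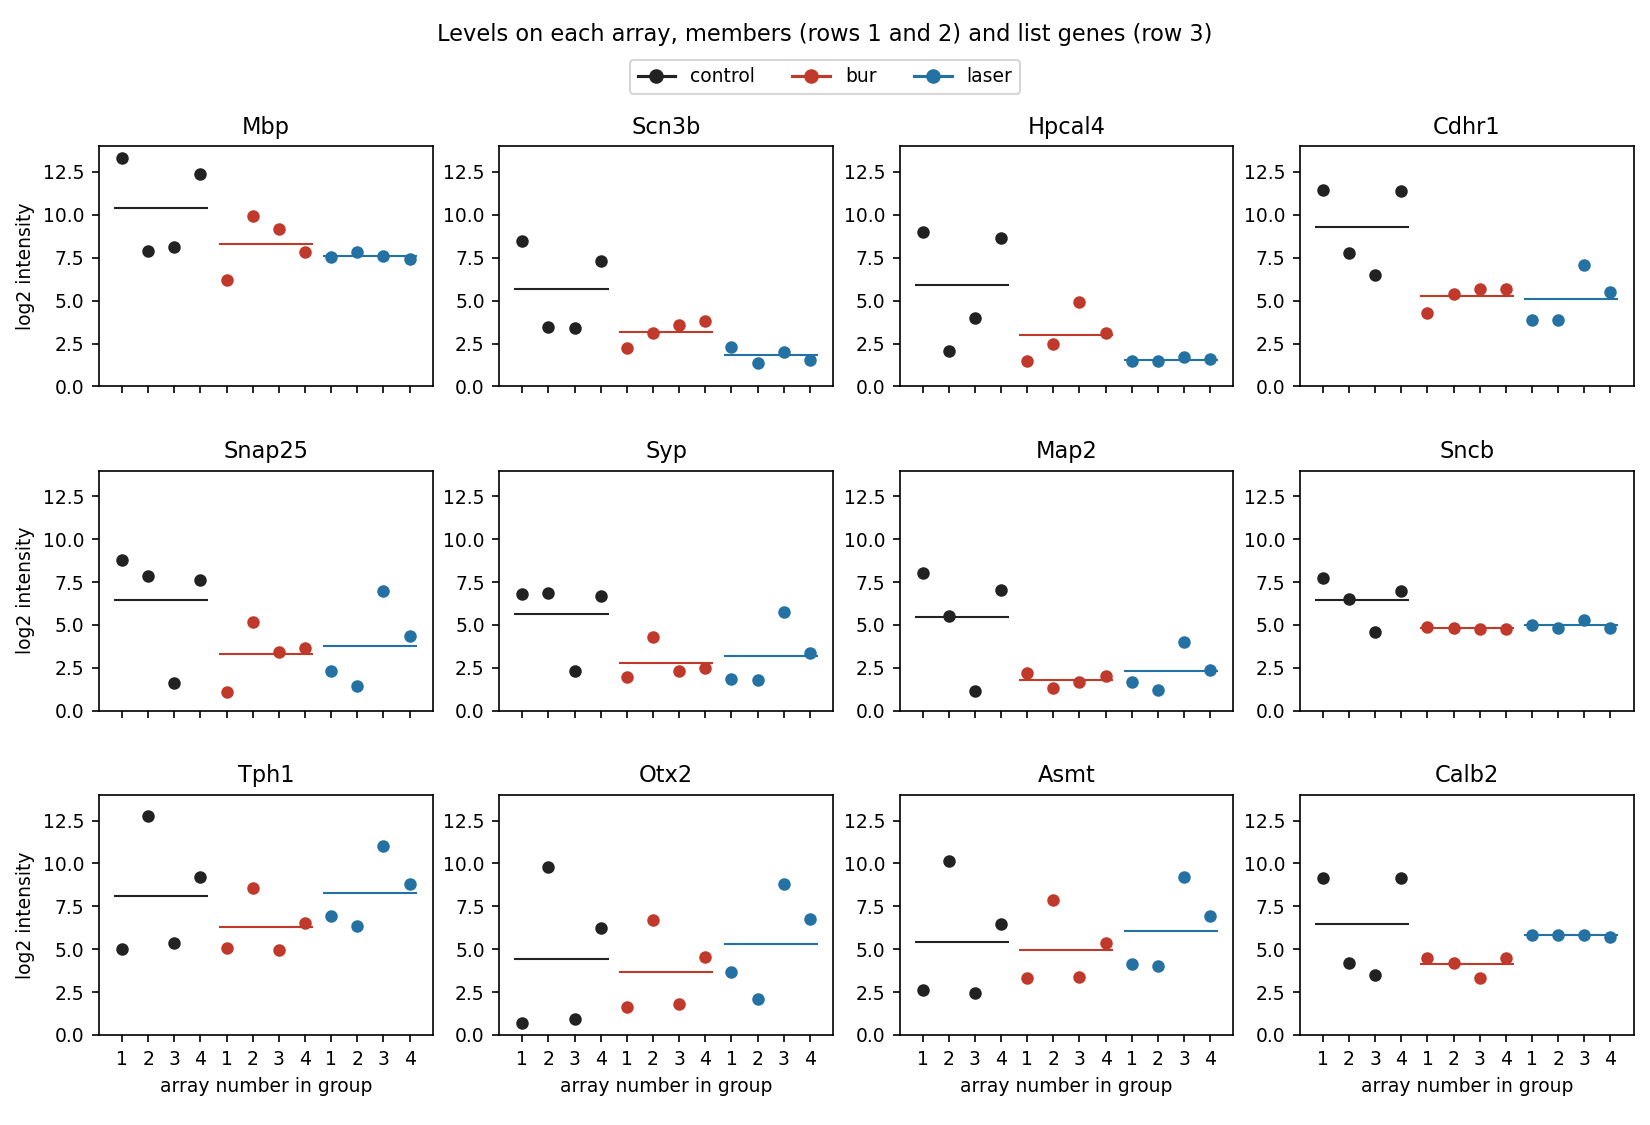
Log2 normalised intensity (y) on each array (x, array number within its group) for 8 of the 35 genes (upper rows) and 4 genes of the marker lists (lower row). Points are arrays and horizontal lines are group means. Mbp, Scn3b, Hpcal4 and Calb2 are high on control 1 and control 4, Snap25 and Syp also on control 2 and laser 3, and Tph1, Otx2 and Asmt are highest on control 2 and laser 3 and low on control 1.

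Other genes of neurons and oligodendrocytes were read from lists that share no gene with the 35. Of 20 further neuronal genes, 12 were kept and Slc32a1 and Gria2 were not well above background on any array. Their summed level was 12.3, 10.6, 10.2 and 11.8 on control 1 to 4, 9.98 to 10.2 in bur and 9.99 to 10.1 in laser. Among the genes of this list with the highest means, Thy1, a surface glycoprotein of neurons and other cells, read 8.66 to 9.48 in control and 8.44 to 8.88 elsewhere. Nsg1 read 5.44 to 7.04 in control and 6.95 to 8.16 elsewhere. Gad1, which makes the transmitter GABA, was chosen after its values were seen: it read 10.58, 3.05, 2.32 and 9.13 in control and was well above background on control 1 and control 4 alone, so the filter on dim probes removed it.

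Of 13 further oligodendrocyte genes, 9 were kept, and their summed level was 11.2, 10.4, 11.6 and 11.8 on control 1 to 4, 9.79 to 10.6 in bur and 9.82 to 10.4 in laser. Tspan2 read 9.85, 9.98, 11.21 and 11.16 and Ugt8, a lipid enzyme of myelin, 7.31, 6.60, 8.33 and 8.39 on control 1 to 4. Both were highest on control 3 and control 4, as Nrgn and Cldn11 were. Olig1 and Olig2, the transcription factors of the oligodendrocyte lineage, were named after their values were seen. Olig1 read 7.20, 1.62, 1.26 and 5.71 in control, 1.25 to 2.61 in bur and 3.68 to 4.48 in laser. It was well above background on 2 control arrays, no bur array and 4 laser arrays. Olig2 read 4.03, 0.68, 0.66 and 2.96 in control and was not well above background on any treated array.

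Of 10 further astrocyte genes 9 were kept, and the summed level varied little, from 13.37 to 14.18 in control, 14.08 to 14.67 in bur and 13.81 to 14.005 in laser. The sum was carried by Glul and Apoe, which many cell types express. S100b, chosen after its values were seen, read 11.46, 6.89, 7.42 and 9.72 in control and 3.97 to 7.30 elsewhere.

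Lists of other cell types that such samples could hold were read beside these. Genes of the pineal gland and photoreceptors did not all follow the same arrays. Of 10 such genes 5 were kept, Pde6b was not well above background on any array, and the summed level was 6.02, 13.3, 6.32 and 9.70 on control 1 to 4, 6.50, 9.73, 6.09 and 7.67 on bur 1 to 4, and 7.77, 7.29, 11.8 and 9.55 on laser 1 to 4. Tph1, the enzyme that starts serotonin synthesis in the pineal gland, read 5.04, 12.76, 5.36 and 9.19 in control, 5.07, 8.55, 4.97 and 6.52 in bur, and 6.92, 6.34, 11.001 and 8.77 in laser. Asmt, which makes melatonin, read 2.64, 10.16, 2.45 and 6.46 in control, and Otx2, a transcription factor of pineal gland and retina, 0.72, 9.79, 0.93 and 6.24. Tph1, Asmt, Otx2 and Gngt1 were highest on control 2 and laser 3. Drd4, the other kept gene, was highest on laser 1 (5.61), and laser 3 (4.12) was its lowest laser array. Aanat and Crx were each well above background on 1 laser array and no other. Gngt1, Drd4, Aanat and Crx were named after their values were seen.

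Control 1, the array with the highest reading of most of the 35 genes, was at background for Otx2. For Snap25, Syp, Syt1 and Map2 the arrays control 2 and laser 3 were above control 3 and the other laser arrays. The part of pineal genes in those readings was not tested. Of 5 choroid plexus genes 2 were kept and Kcnj13, Clic6 and Kl were not well above background on any array. Its gene Ttr, the thyroxine carrier, read 1.66, 11.12, 1.41 and 7.39 in control, 1.82 to 7.84 in bur and 2.81, 3.85, 9.83 and 6.999 in laser. Folr1, the other kept gene, went another way, with 4.80, 5.79, 6.21 and 5.94 in control and its highest reading on bur 1 (6.92). The summed level of the list was 5.49 to 11.2 in control, 6.56 to 8.26 in bur and 5.81 to 9.92 in laser.

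For the olfactory bulb list, 6 of 6 genes were kept and the summed level was 12.5 to 13.6 in control, 11.9 to 12.8 in bur and 13.5 to 14.1 in laser, carried by Tbx21, which read 11.83 or more on all arrays. Calb2, the calcium-binding protein calretinin, read 9.13, 4.18, 3.48 and 9.16 in control, 3.32 to 4.51 in bur and 5.74 to 5.83 in laser, with the highest readings on control 1 and control 4. For the cerebral cortex 3 of 8 genes were kept, and Tbr1 and Lamp5, which mark cortical layers, were not well above background on any array. Mef2c, a kept gene, is also expressed by bone and blood cells, and the sum was 8.54 to 9.79 in control, 9.16 to 9.92 in bur and 9.40 to 10.3 in laser. For the cerebellum 3 of 6 were kept, Calb1 and Gabra6 were not detected on any array, and the sum was 6.31 to 6.66 in control, 6.22 to 6.57 in bur and 6.34 to 6.74 in laser.

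Genes of peripheral nerve were read as well. Of 8 Schwann cell genes 5 were kept, Pmp2 was not well above background on any array, and the summed level was 8.52 to 9.003 in control, 9.47 to 10.3 in bur and 8.82 to 9.20 in laser. Of 9 sensory neuron genes 5 were kept, the ion channels Scn9a and Scn10a and the factor Isl1 were not well above background on any array, and the sum was 7.11, 6.07, 6.80 and 7.57 on control 1 to 4, 6.25 to 6.94 in bur and 6.76 to 7.23 in laser. Tac1, the precursor of substance P, read 6.36, 1.27, 1.07 and 7.18 on control 1 to 4, 0.79 to 5.22 in bur and 0.73 to 2.70 in laser. Both the sum and Tac1 were thus highest in control on control 4 and control 1, and their part in the readings of the 35 genes was not tested. Of 5 microglial genes 4 were kept, with a sum of 11.001 to 11.72 in control, 11.5 to 11.9 in bur and 11.6 to 12.1 in laser. Of 9 meningeal genes 8 were kept, Aldh1a2 was not detected on any array, and the sum was 11.6, 10.4, 10.6 and 11.7 on control 1 to 4, 10.4 to 10.9 in bur and 9.87 to 10.3 in laser. The meningeal sum was thus also highest on control 1 and control 4, where Ptgds was the highest gene of the list. Ptgds, named after its values were seen, read 10.70, 5.60, 7.07 and 10.45 on control 1 to 4. Igf2 read 9.44, 9.05, 8.28 and 9.71 there. Foxc1 (8.52, 8.82, 9.59 and 9.40) and Slc47a1 (6.18, 6.94, 7.21 and 7.08) went another way, with control 1 their lowest control array. The part of the meningeal genes in the readings of the 35 genes was not tested.

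Genes among the highest means in the lists not detailed above were Tmem119 and P2ry12 (microglia), Pmp22 and Ngfr (Schwann cells), Avil and Tac1 (sensory neurons), Foxc1, Igf2 and Slc47a1 (meninges), Car8, Zic2 and Pcp2 (cerebellum), Mef2c and Cux2 (cortex) and Cfd, Fabp4 and Adipoq (fat cells). In skeletal muscle, of which 5 of 6 genes were kept and Myh4 was not detected on any array, they were Tnni2, Tnnt3 and Ckm, with a summed level of 6.51 to 8.31 in control, 8.02 to 8.78 in bur and 8.01 to 8.50 in laser. In bone marrow, of which 6 of 6 were kept, they were Hbb, Alas2 and Elane, with a sum of 15.9 to 16.0 in control, 14.5 to 15.0 in bur and 14.6 to 15.5 in laser.

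Genes outside the 35 whose pattern over the 12 arrays was nearest to the mean pattern of the 6 kept myelin genes were found by the root mean square difference of centred log2 levels. That mean pattern, which includes the CA-repeat probe of Mobp, was 1.02 on control 1 and 0.97 on control 4, and lay between -0.88 (bur 1) and 0.24 (bur 2) on the other 10 arrays. The nearest were Gpsm1, a G-protein modulator, at 0.12 log2 units, Vamp2, the vesicle SNARE that pairs with Snap25, at 0.16, and Pitpnm2 at 0.28. Adarb1, Psat1, Purg, LOC689679, Tspan7, Snrnp70 and Tmem91 followed, at 0.29 to 0.31. The 6 myelin genes themselves lay farther from their mean pattern, from 0.61 (Cnp) to 1.54 (Mbp). Nearness to that mean therefore does not show likeness to a single myelin gene. The measure covers 12 arrays of 3 groups. Gpsm1 read 11.39, 10.43, 10.47 and 11.09 on control 1 to 4, a smaller range than that of Mbp. By the same measure, taken for Snap25 after its values were seen, Chgb (chromogranin B of secretory granules) was nearest, at 0.45, and for Cdhr1 the granule gene Scg2, at 0.59.

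Drilled bone was compared with control bone to give the difference 24 h after a mechanical cut. The difference of means was below 0 for 27 of the 29 kept genes, with a median of -1.64 on the log2 scale against 0.08 over all 16381 named genes. By limma, with Benjamini-Hochberg adjustment over all kept probes, 9 of the 29 were called lower and none higher, where 21.9% of all named genes were called and 9.12% were called lower. By role, 1 of 6 myelin genes, 5 of 7 astrocyte genes, 2 of 9 synaptic genes, none of 4 cytoskeletal genes and 1 of 3 further genes were called. Since the difference from control chose the genes, nothing is read from these counts. Control and bur readings did not overlap for 4 of the 29, all lower in bur, where 9.74% of all named genes were lower without overlap.

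Cdhr1 fell by 4.03 ± 1.11 (SE) on the log2 scale in bur, Slc7a10 by 3.70 ± 0.81 and Bcan by 3.04 ± 0.96, and all 3 were called. Slc7a10 was well above background on 1 bur array, and its other 3 bur readings lay under the background limit. With the authors' deposited values in the same model the differences of Slc7a10 (-1.07), Bcan (-2.00) and Slc1a2 (-0.92) were smaller and still called. Cldn11 fell by 2.02 ± 0.58, Sncb by 1.64 ± 0.51 and Slc1a3 by 1.28 ± 0.39, also called. Where no bur array was well above background, the fold is a bound. It sets the mean of the control arrays against, for each bur array, the higher of the probe's reading and the lowest signal well above background. Slc1a2 was at least 3.59-fold lower, Syn1 at least 2.83-fold and Gfap at least 1.46-fold, all called. Map2 was at least 7.68-fold and Syt1 at least 2.17-fold below control and were not called. The other kept Syt1 probe, A_42_P655441, was at least 4.71-fold lower in bur and was called. The other kept probes of Cldn11 (-2.07) and Slc1a3 (-0.72) were not called. Aqp4 was at least 5.78-fold, Stmn2 at least 1.98-fold, Nefl at least 1.36-fold and Nefm, by A_42_P752336, at least 1.35-fold below control, without entering the fit. Each of these was well above background on 2 control arrays, on which its bound rests. With normexp background correction the log2 differences of Slc1a2 (-0.47), Syn1 (-0.46) and Map2 (-1.25) were smaller than these bounds.

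Several genes with a wide spread among control arrays were not called, although Cdhr1 (control SD 2.54) and Bcan (2.37) were. The difference was -3.14 ± 1.62 (SE) for Snap25, -2.93 ± 1.37 for Hpcal4, -2.89 ± 1.13 for Syp, -2.48 ± 0.99 for Scn3b, -2.12 ± 1.19 for Mbp, -1.70 ± 0.74 for Grin1 and -1.17 ± 0.65 for Kif5a. Eno2 had the opposite sign, 1.27 ± 0.58, and was not called. With the authors' deposited values in the same model, Snap25 (-2.21), Syp (-1.54) and Map2 (-1.87) were called and Scn3b (-1.45) was not. In the authors' own deposited comparison Snap25 and Scn3b did not pass an adjusted p of 0.05, and Syp and Map2 did.

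These differences rested on few control arrays. Without control 1 and control 4, an alternative chosen with earlier results known, the median difference was -0.70 and 1 gene, Gfap, was called, where 13% of all named genes were. The difference of Mbp became 0.29, that of Kif5a 0.25, Grin1 -0.01, Hpcal4 -0.02, Scn3b -0.27 and Bcan -1.06. Slc7a10 (-3.53), Slc1a2 (-1.95) and Cdhr1 (-1.89) had a larger difference and were not called. With 1 array left out at a time, the count lay between 3 (without control 4 or bur 1) and 14 (without control 3). It was 4 without control 1 or bur 4, 5 without bur 2, laser 1, laser 2 or laser 4, 6 without bur 3 or laser 3, and 12 without control 2. The share of all named genes called in these fits was 15.5% to 23.7%.

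**Figure D4:**
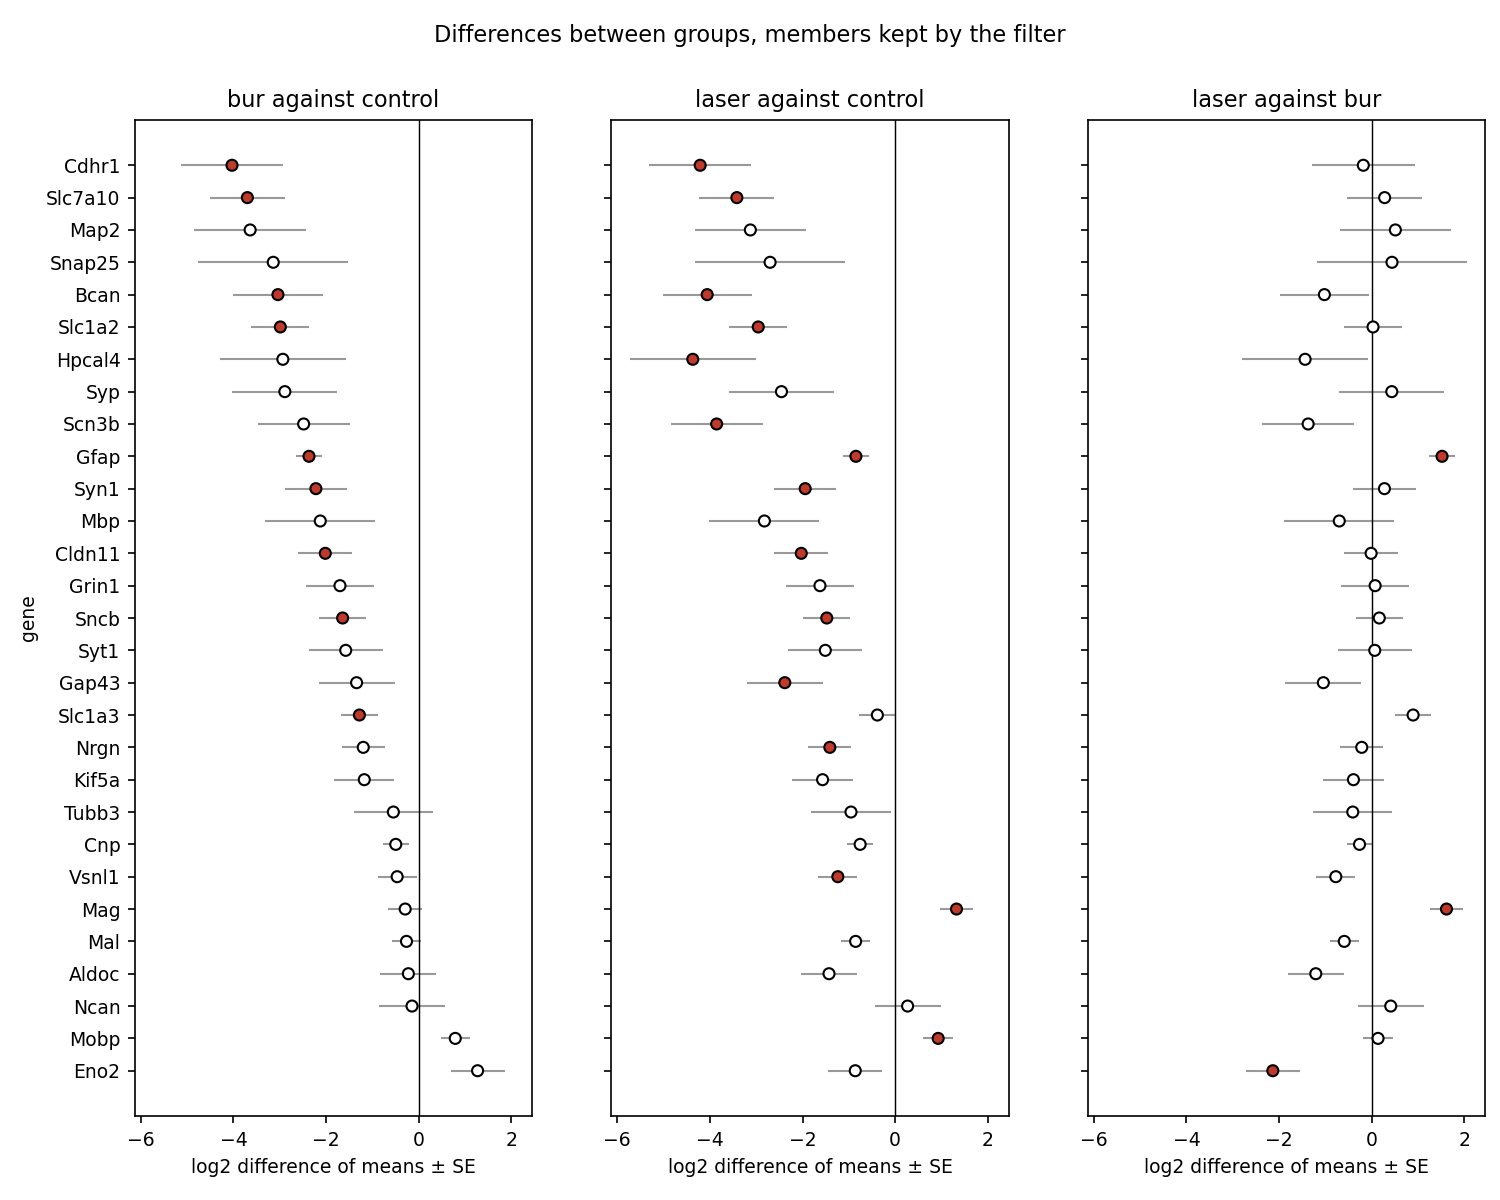
Difference of group means on the log2 scale (x, points, with the SE as bars) for the 29 kept genes (y), in the order of bur against control, for the 3 comparisons. Filled points were called at an adjusted p under 0.05 in the limma fit of 12 arrays, with no test read from the comparisons with control, and genes below background in a group have only a bound there. Most points lie left of 0 in both comparisons with control, and Mag (1.62), Gfap (1.52) and Eno2 (-2.13) are the filled points of laser against bur.

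Laser-cut bone was compared with the same control arrays, so this comparison shares its controls with the preceding one. The difference was below 0 for 26 of the 29 genes, with a median of -1.57 on the log2 scale against 0.01 over all named genes. Of the 29, 13 were called lower and 2 higher, where 15.6% of all named genes were called lower and 17.8% higher (33.4% in all). Groups did not overlap for 7 genes that were lower (17% of all named genes) and 1 that was higher (18.3%). By role, 1 of 6 myelin genes was called lower and 2 higher, and 4 of 7 astrocyte genes, 5 of 9 synaptic genes, 1 of 4 cytoskeletal genes and 2 of 3 further genes were called lower.

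Cdhr1 fell by 4.21 ± 1.11 (SE) on the log2 scale, Bcan by 4.06 ± 0.96, Scn3b by 3.85 ± 0.99, Slc7a10 by 3.42 ± 0.81, Slc1a2 by 2.96 ± 0.63, Cldn11 by 2.03 ± 0.58, Syn1 by 1.94 ± 0.67 and Sncb by 1.48 ± 0.51. Slc1a2 and Slc7a10 were each well above background on 1 laser array. Hpcal4, with no laser array well above background, was at least 17.6-fold lower. That bound rests on control 1 and control 4: without them the log2 difference of Hpcal4 was -1.46, not called. It was -2.33 with the authors' deposited values, called, and -1.66 with normexp, not called. With the authors' deposited values in the same model, the differences of Bcan (-2.28), Scn3b (-1.85), Slc7a10 (-1.25) and Slc1a2 (-0.996) were smaller and still called. Those of Mbp (-3.04), Syp (-1.30) and Map2 (-1.74) were called too. In the authors' own deposited comparison Mbp and Syp did not pass an adjusted p of 0.05, and Map2 did. Nrgn, Vsnl1, Gap43 and Gfap were the other genes called lower, as was the Syt1 probe A_42_P655441 (-3.36 ± 1.07). Aqp4 was at least 9.58-fold, Stmn2 at least 3.28-fold, Nefm, by A_42_P752336, at least 2.23-fold and Camk2a at least 1.49-fold below control, without entering the fit. These bounds rest on few control arrays: Aqp4, Stmn2 and Nefm were well above background on 2 of them and Camk2a on 1. Mag rose by 1.32 ± 0.36, and Mobp by 0.93 ± 0.32 as read by the CA-repeat probe. With the mean of the 4 kept Mobp probes the difference of Mobp was -1.24, not called. Mbp (-2.82 ± 1.19), Snap25 (-2.70 ± 1.62), Syp (-2.45 ± 1.13) and Map2 (-3.13 ± 1.20) were not called.

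Without control 1 and control 4, 6 genes were called against control, where 24.2% of all named genes were: Bcan, Cnp, Mal, Scn3b and Slc1a2 lower and Mag higher. The median difference was then -0.78, and that of Mbp was -0.41. Leaving out 1 array at a time gave 6 (without laser 1 or laser 2) to 18 (without control 3) called genes. The count was 8 without control 4, 9 without laser 3, and 10 to 17 without each of the other arrays. Over these 12 fits 24.7% to 34% of all named genes were called.

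The difference between laser and bur uses no control reading, so the choice of genes bears on it least. The control arrays still share in the estimate of the spread and in the filter on dim probes. Some genes passed that filter mainly through control arrays. Slc1a2 was well above background on 0 bur arrays and 1 laser array, Hpcal4 on 1 and 0, and Slc7a10 on 1 and 1. Map2 was so on 0 and 2, and Syp on 1 and 2. Gfap passed the filter through 2 control and 2 laser arrays, with 0 bur arrays. The counts and the median below include such genes. Of the 29 genes, 2 were called higher in laser (11.6% of all named genes) and 1 lower (14%), and 26 did not pass. Over both directions, 3 of 29 stood against 25.6% of all named genes. The median difference was -0.01 on the log2 scale, against -0.06 over all named genes, and 15 genes lay below 0 and 14 above. Laser and bur readings did not overlap for 7 of the 29 (33.6% of all named genes), 4 of them lower in laser (19.6%) and 3 higher (13.9%).

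Mag was higher in laser by 1.62 ± 0.36 (SE) on the log2 scale (limma adjusted p = 0.00691), with 4 of 4 laser arrays above all bur arrays. Under normexp background correction the difference was 0.56 (limma adjusted p = 0.00223). The authors' deposited table gives Mag a log2 fold change of 0.92 with an adjusted p of 0.00371. Eno2 was lower in laser by a log2 difference of -2.13 ± 0.58 (limma adjusted p = 0.0190), again with no overlap in 4 against 4 arrays. Without bur 1, bur 2 or laser 3 it was not called (limma adjusted p = 0.0502, 0.0525 and 0.0514). The other Eno2 probe, well above background on all 12 arrays, gave -1.04 (limma adjusted p = 0.118), not called, and its laser and bur readings overlapped. The authors' deposited table gives Eno2 -1.88 with an adjusted p of 0.000553. Gfap was also called, 1.52 ± 0.27 higher, but no bur array and 2 of 4 laser arrays read it well above background. The call rests on bur readings under the background limit, which have no order, so nothing is read from it. Its bound gives no fold above 1, and the difference was 0.09 under normexp, not called. Without the filter on dim probes the rule took another Gfap probe, A_44_P464502, whose difference was 0.47, not called.

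For the other genes the intervals were wide. The 95% interval of the laser against bur difference ran from -3.30 to 1.90 around -0.70 for Mbp, from -3.13 to 1.09 around -1.02 for Bcan and from -3.55 to 0.81 around -1.37 for Scn3b. These widths include the spread of the control arrays. When only the 8 laser and bur arrays were fitted, 8 of the 29 were called, where 29.8% of all named genes were. Beside Mag, Eno2 and Gfap these were Slc1a3 (0.90), higher in laser, and Scn3b (-1.37), Aldoc (-1.21), Vsnl1 (-0.77) and Mal (-0.59), lower in laser. Without control 1 and control 4 in the joint fit, 7 were called, the same genes without Mal, where 27.7% of all named genes were.

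In the lists that share no gene with the 35, none of the 9 kept oligodendrocyte genes was called between laser and bur. Of the 9 kept astrocyte genes, Gja1 and Acsbg1 were called higher in laser and Glul lower. Acsbg1, an acyl-CoA synthetase, read 9.54, 5.79, 5.92 and 8.34 in control, 5.03 to 5.86 in bur and 8.21 to 8.59 in laser, so its laser readings lay between those of control 1 and control 3. Of the other lists, no kept pineal, microglial, cortical or adipocyte gene was called. Calca, Tbx21, Th, Pcp2, Acta1, Ckm, Col1a2 and Hbb were called higher in laser and Pmp22, Crabp2, Slc47a1, Folr1, Tnnt3 and Tnni2 lower.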

How the data were processed

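The 12 samples were measured on single-colour Agilent arrays of 62976 spots, 4259 of them controls. Each deposited scanner file gives spot intensities with the background removed and, per the file headers, flags for outlier spots, saturation and signal well above background. The submitters' processing notes name Agilent Feature Extraction 11.0.1.1. No rat spot was saturated. The authors' deposited table of log2 values names quantile normalization, and 21080 of its 24920 entries could be tied to probes, among them 31 of the 64 probes and 27 of the 35 genes. It serves as an alternative. The authors' deposited comparisons hold log2 fold changes and p-values, quoted only where named.

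Log2 values of the processed signal were quantile normalized over rat spots without outlier spots, and spots of a probe were averaged. A probe was kept when 4 or more of the 12 arrays read it well above background (27194 probes). A gene is read from its kept probe with the highest mean. Genes outside the 35 carry the RefSeq symbol of GRCr8 where their accession matched. All arrays entered 1 limma 3.58.1 fit (R 4.3.3), with Benjamini-Hochberg adjustment over all kept probes and calls at 0.05. The fit was tested on simulated data. For the comparisons with control, calls are counted and no p is given.

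Members and lists were chosen with earlier results of these data known. All 35 genes were named by role, with array readings for those kept, and from each list the 3 genes with the highest means and any called between laser and bur; others are marked where they appear. Some genes that this rule takes from the lists are not reported here. No arrays were duplicates, and the closest pair in a group correlated at 0.989. The number of arrays limits the precision. Alternatives were the scaling (75th percentile), normexp with an offset of 50, the authors' values, the filter, the mean over probes, the arrays in the fit, array weights, the replicate block and leaving out arrays.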

Additional observations from a re-analysis of the deposited data

Results flagged for a closer look

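In 8 of 87 groups of 4 arrays, over the 29 kept genes and 3 groups, 1 array stood far from the other 3 for its group's whole range. Chance flags about 1 in 20 groups. In control, Syp read 2.29 on control 3 where the nearest array read 6.70, and Snap25 read 1.60 on control 3 where the nearest read 7.59. In bur, Cldn11 read 4.04 on bur 1 (nearest 5.34), Slc7a10 read 4.34 on bur 2 (nearest 0.64), and Gfap read 0.71 on bur 4 (nearest 0.66), all 4 Gfap readings being below background. In laser, Mal read 3.499 on laser 1 (nearest 4.02), Bcan 3.32 on laser 3 (nearest 2.40) and Tubb3 3.95 on laser 2 (nearest 3.34).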

How the results depend on the processing

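Of the 29 genes, 9 were called in bur against control, 15 in laser against control and 3 in laser against bur, where 21.9%, 33.4% and 25.6% of all named genes were. The counts were 9, 15 and 3 with scaling to the 75th percentile (22.5%, 32.9% and 28.2% of all named genes), under which the median of all genes in bur against control was -0.08 in place of 0.08. They were 12, 12 and 2 with normexp (29.4%, 35.8% and 28.6%), 8, 15 and 3 with the mean of probes (21.8%, 31.4% and 24.7%) and 7, 20 and 3 with array weights (16.6%, 38.6% and 35.5%). With the authors' deposited values in the same model (27 genes tested) they were 13, 18 and 2 (30.5%, 36.4% and 27.9%). Without the filter on dim probes (35 genes tested) they were 8, 9 and 2 (19.6%, 22% and 19.4%), and with detection asked for on all 12 arrays (13 tested) 4, 7 and 1 (29.5%, 38.1% and 29.8%). Fits of only the groups compared gave 3, 8 and 8 (13.2%, 31.4% and 29.8%), and fits without control 1 and control 4 gave 1, 6 and 7 (13%, 24.2% and 27.7%). Leaving out 1 array at a time gave 3 to 14, 6 to 18 and 2 to 4, where 15.5% to 23.7%, 24.7% to 34% and 18.3% to 27.7% of all named genes were called.

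Same-numbered arrays of different groups had correlations of their deviations from the group means between -0.07 and 0.29. Not every pair exceeded 0.1 and the labels tie the numbers to no shared source, so the numbers were not taken to pair the samples, although 8 of 12 arrays correlated best with their own number, which is a hint from the data of structure shared by number. With the replicate block the counts were 9, 13 and 3 (22.7%, 34.9% and 26.5% of all named genes), not all for the same genes. In bur against control 7 of the 9 were shared: Bcan and Sncb were no longer called and Eno2 and Nrgn were. In laser against control 11 of the 13 were shared: Sncb, Gap43, Gfap and Mobp were no longer called and Cnp and Mal were. Of single genes given with a log2 difference, 3 reversed: Mbp (0.29) and Kif5a (0.25) in bur against control without control 1 and control 4, and Mobp (-1.24) in laser against control with the mean of its probes. Neither the causes of these changes nor what the repeat probe of Mobp binds was tested. Genes below background on all arrays of a group have only a bound, which normexp shrank.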
